A study of Mus musculus with 8 samples.

Results

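The genes described here encode the fibroblast growth factor (FGF), epidermal growth factor (EGF) and platelet-derived growth factor (PDGF) ligands and their receptors, with the HGF/Met and Kit ligand/Kit pairs and the Sprouty, Spred and dual-specificity phosphatase inhibitors that act on the same signalling route. They were chosen by symbol from the deposited gene count table (names that begin with Fgf and a digit or with Fgfr, and a written list of the others), which gave 64 of 32531 genes. The symbol rule also takes in Fgfr1op and Fgfr1op2, which were named as fusion partners of Fgfr1 and are not receptors, and the pseudogene Fgfr3-ps.

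RNA was sequenced from pancreatic islets of 4 Control mice (RIP-Cre+, Rosa26-rtTA+, tetO_NICD-) and 4 NICD mice (RIP-Cre+, Rosa26-rtTA+, tetO_NICD+), called β-tetO-NICD in the study. Both groups were on a mixed C57BL/6J, 129X1/SvJ and BALB/c background and took doxycycline (Dox) for 8 weeks, so the Control mice also carried Cre and rtTA and received the drug. Cre is driven by the rat insulin promoter, so the Notch1 intracellular domain (NICD), the active part of the receptor, is induced in β cells, whereas the RNA came from whole islets with all their cell types. The labels give neither age nor sex, and the study's methods name males for gene expression.

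FGF, EGF and PDGF ligands bind receptor tyrosine kinases at the cell surface. The bound receptors pair, phosphorylate one another and recruit adaptors that switch on RAS and the ERK kinases, and ERK in turn induces Sprouty, Spred and DUSP genes that damp the signal. Many FGFs need heparan sulfate chains on the cell surface to hold ligand and receptor together. In the pancreas, FGF signals through Fgfr2 support the growth of the embryonic progenitors, EGF receptor signals support β cell mass, and PDGF receptors mark pericytes and other stromal cells.

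Notch acts through the DNA-binding protein RBPJ, whose core recognition sequence was searched as TGGGAA, or TTCCCA on the other strand, in the RefSeq window from 250 bases before to 50 bases after each start (GRCm38.p6). A window was held for 45 of the 64 genes, and 13 of them (28.9%) contained the motif on either strand, against 28.3% of all 27025 genes with a window. Of the 7 genes whose Control and NICD libraries did not overlap, 6 had a window and 3 of these contained it. The 3 windows are shown because they belong to the FGF receptor gene with the greatest difference, to a decoy FGF receptor and to the most abundant FGF gene. Each is written 5′ to 3′ on the strand of its gene, with the match in capitals. A match is a description of the letters and not a site of binding.
Fgfr2: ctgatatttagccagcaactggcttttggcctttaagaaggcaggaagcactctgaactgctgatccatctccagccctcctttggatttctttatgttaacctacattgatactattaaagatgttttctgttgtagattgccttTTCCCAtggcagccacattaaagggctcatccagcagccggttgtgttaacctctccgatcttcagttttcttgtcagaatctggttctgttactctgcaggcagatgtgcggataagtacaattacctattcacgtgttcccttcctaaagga
Fgfrl1: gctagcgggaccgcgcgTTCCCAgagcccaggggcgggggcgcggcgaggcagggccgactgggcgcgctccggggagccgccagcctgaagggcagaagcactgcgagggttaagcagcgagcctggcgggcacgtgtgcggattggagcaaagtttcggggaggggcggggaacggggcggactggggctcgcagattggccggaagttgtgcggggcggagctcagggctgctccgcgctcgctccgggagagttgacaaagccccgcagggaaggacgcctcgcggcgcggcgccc
Fgf12: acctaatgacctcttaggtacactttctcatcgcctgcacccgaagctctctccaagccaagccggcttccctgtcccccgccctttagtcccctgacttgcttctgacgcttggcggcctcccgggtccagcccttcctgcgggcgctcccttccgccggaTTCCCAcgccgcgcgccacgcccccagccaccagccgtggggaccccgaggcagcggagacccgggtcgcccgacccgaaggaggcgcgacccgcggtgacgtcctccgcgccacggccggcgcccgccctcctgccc

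The Fgfr2 window lies at chr7:130266759-130267058 on the minus strand, and its match begins 104 bases before the start. This RefSeq start is not the start of any Fgfr2 transcript in GENCODE M21. The Fgfrl1 window lies at chr5:108693979-108694278 on the plus strand, with the match 233 bases before the start. The Fgf12 window, 1 of 4 for that gene, lies at chr16:28564902-28565201 on the minus strand, with the match 88 bases before the start. The Fgf12 match is also the longer form GTGGGAA, read as TTCCCAC on the other strand. That form was present in 7.25% of all genes with a window and in 6.67% of the growth factor genes with one. No window was held for Fgfr1.

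The libraries held between 21701223 and 26413146 counts, at which 3 counts, the floor used here for counting error alone, correspond to at most 0.151 CPM, the counts scaled to a common library size. Notch1, whose intracellular domain the transgene encodes, was at 56.9 ± 10.7 CPM in Control and 1030.0 ± 331 CPM in NICD islets (SD, n = 4 each), which checked the labels. The libraries also stood apart in other ways. Across genes, a library's deviation from the mean rose with transcript length in Control 1, 2 and 4 and NICD 1 (Spearman's rho across genes, which are not independent, between 0.434 and 0.513) and fell with it in Control 3 and NICD 2, 4 and 5 (between -0.530 and -0.173). The Y-linked gene Eif2s3y had at least 1300 counts in Control 2, Control 4 and NICD 5 and at most 1 in the other 5 libraries, although males are named. The summed level of the 7 α cell markers ranged from 12340 to 43400 CPM in Control and from 55710 to 70650 CPM in NICD islets, and that of the 9 macrophage markers from 147.9 to 193 CPM and from 218.4 to 304.7 CPM. Most of the α cell sum was Gcg (means of 22650 CPM in Control and 61250 CPM in NICD islets, edgeR adjusted p = 0.0622), and Slc7a2 of that list had a negative estimate. Of the macrophage markers C1qa alone did not overlap between the groups (means of 77.6 CPM in Control and 150.4 CPM in NICD islets), and Adgre1, Mrc1 and Itgam had negative estimates. The sums of the β, δ, stromal, endothelial, acinar, duct and Schwann cell markers overlapped between the groups, and no marker of any of the 9 lists was at 0 in any library. Past the threshold, 3 of 7 α cell, 1 of 2 δ cell and 1 of 9 macrophage markers were higher and 3 of 10 β cell markers were lower, with none of the other 5 lists.

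The question put to these genes was which of them differed between islets with and without β cell Notch activation. Both Fgfr2 and Fgfr1 rose in NICD islets, and no growth factor gene passed the threshold lower, with Egfr closest to it (adjusted p = 0.0578, edgeR). Fgfr2 was 4.34-fold higher and Fgfr1 1.59-fold higher, and every NICD library lay above every Control library for both. Of the 64 genes, 45 had at least 10 counts in at least 4 libraries and were tested, and 2 of the 45 (4.44%) passed an adjusted p of 0.05 in edgeR's quasi-likelihood test, adjusted by Benjamini-Hochberg over all 15082 tested genes. Over all tested genes 6.76% passed, 4.19% higher and 2.57% lower in NICD islets. No overlap of the groups was seen in 7 of the 45 genes (15.6%), all 7 higher in NICD islets, against 16.1% of all tested genes, of which 8.22% were higher and 7.92% lower. Both shares were near those of all genes. DESeq2 called these 2 genes, with Fgf12, Tgfa and Spry1 higher and Egfr lower, and limma-voom called these 2 alone. Their median log2 fold change was 0.10, with 25 positive and 20 negative, beside 0.0007 over all tested genes. Islets are mixtures, so fewer cells of a type and less RNA per cell cannot be told apart in any value below, and p-values measure the spread between these libraries. The higher α cell markers and C1qa in NICD islets, and the length and Eif2s3y differences between libraries, were present beside every result, and their part in it was not tested except where a value is given.

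**Figure D1:**
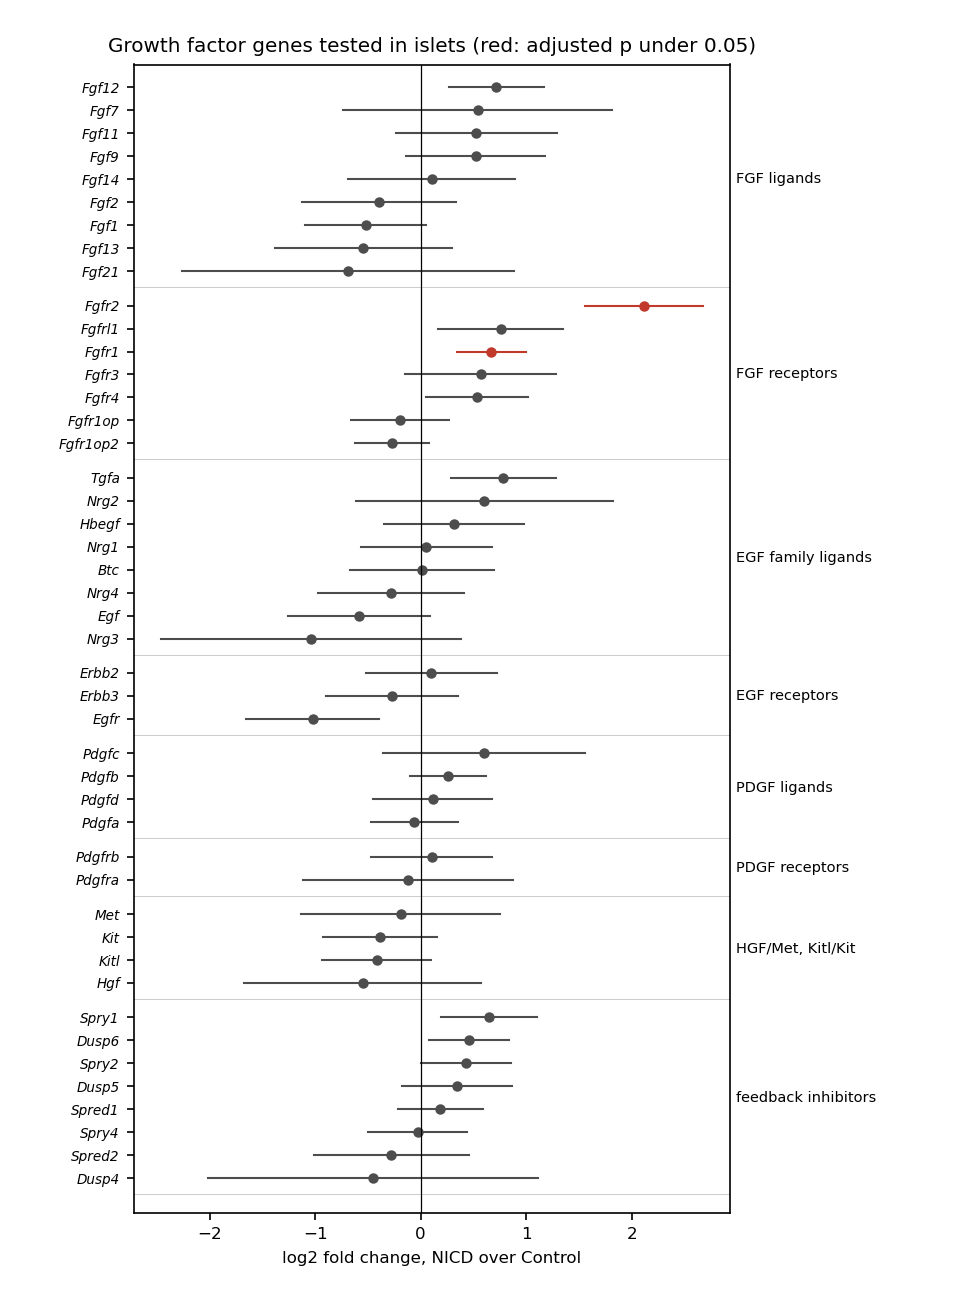
Log2 fold change of the 45 tested growth factor genes in NICD over Control islets (x axis), with points for the edgeR estimate and lines for its 95% interval, grouped by class. Fgfr2 at 2.12 and Fgfr1 at 0.67 are the red points past an adjusted p of 0.05, while Egfr at -1.02 is the lowest estimate whose interval stays below 0.

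The plot of fold changes sets the classes side by side. Of 22 FGF ligand genes 9 were tested, 5 with a positive and 4 with a negative estimate, none past the threshold. Of 8 FGF receptor genes 7 were tested, 5 positive and 2 negative, and the negative ones were Fgfr1op and Fgfr1op2. All of the true receptors among them had positive estimates, between 0.54 and 2.12. Of 11 EGF family ligands 8 were tested, 5 of them positive, and of 4 EGF receptors 3 were tested. All 4 PDGF ligands, both PDGF receptors and the HGF and Kit pairs were tested, and all 4 genes of those pairs had negative estimates (-0.55 to -0.19). Of 9 feedback inhibitors 8 were tested, 5 positive and 3 negative. Among the 45 genes, 8 higher and 1 lower (Egfr) had an unadjusted p under 0.05, beside 2503 higher and 2266 lower of all 15082 tested genes.

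Fgfr2 encodes the receptor for FGF7 and FGF10 in its epithelial form and for several other FGFs in its mesenchymal form, which counts per gene do not separate. It lies on chromosome 7 from 130162451 to 133123350 in GENCODE M21. Its counts were 86, 148, 136 and 87 in Control 1 to 4 and 509, 486, 713 and 277 in NICD 1, 2, 4 and 5. NICD 5 was the lowest of its group and still had more counts than any Control library. The level was 4.78 ± 1.26 CPM in Control and 20.8 ± 4.72 CPM in NICD islets (SD, n = 4 each). The difference was 2.12 on the log2 scale (standard error 0.25, 95% interval 1.56 to 2.67, adjusted p = 0.00147, edgeR's quasi-likelihood test, Benjamini-Hochberg). The estimate stayed between 2.0 and 2.30 and past the threshold in all 23 other settings, among them the fit with the stromal markers as a covariate (2.07), the fit with a transcript length offset (2.25) and the 5 libraries with at most 1 Eif2s3y count (2.30).

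Fgfr1 (chromosome 8, 25513654 to 25575718), a receptor for many FGFs and the partner of β-Klotho in binding FGF21, had 466, 493, 502 and 448 counts in Control 1 to 4 and 805, 760, 854 and 559 in NICD 1, 2, 4 and 5. Every NICD library exceeded the highest Control library. The level was 20.1 ± 1.44 CPM in Control and 32.0 ± 4.78 CPM in NICD islets (SD, n = 4 each). The difference was 0.67 on the log2 scale (standard error 0.15, adjusted p = 0.0270, edgeR's quasi-likelihood test, Benjamini-Hochberg). This call was less steady than that of Fgfr2, and held in 14 of the 23 other settings. It was lost without Control 1, 2, 3 or 4 (adjusted p = 0.0569, 0.0696, 0.0527 and 0.0822) and without NICD 2 or NICD 4 (0.0855 and 0.0576), with estimates between 0.58 and 0.73 over all 8 such edgeR fits. It was also lost with the stromal covariate (adjusted p = 0.0928), the Eif2s3y covariate (0.0517) and the 5 libraries with at most 1 Eif2s3y count (0.236). The estimate stayed between 0.57 and 0.88 over all 23 settings.

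**Figure D2:**
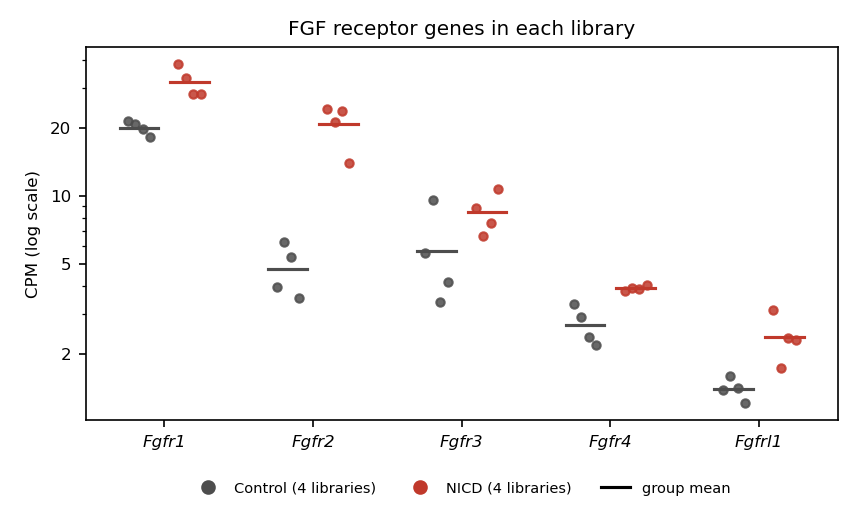
Level of 5 FGF receptor genes in CPM on a log axis, with a point for each of the 4 Control (grey) and 4 NICD (red) libraries and a line at the group mean. The groups are apart for Fgfr1, Fgfr2, Fgfr4 and Fgfrl1, and for Fgfr3 Control 2 at 9.63 CPM lies among the NICD libraries.

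The other FGF receptor genes did not pass the threshold. Fgfr4, the receptor for FGF15 and FGF19 with β-Klotho, was at 3.32, 2.91, 2.37 and 2.19 CPM in Control 1 to 4 and at 3.80, 3.93, 3.89 and 4.03 CPM in NICD 1, 2, 4 and 5. Its groups did not overlap and its NICD libraries were close together, with a log2 fold change of 0.54 (standard error 0.22, edgeR adjusted p = 0.133). Fgfrl1 binds FGF but lacks the kinase domain. It was at 1.38, 1.61, 1.42 and 1.22 CPM in Control and 3.14, 1.75, 2.36 and 2.32 CPM in NICD libraries, again with no overlap, and its log2 fold change was 0.76 (standard error 0.26, edgeR adjusted p = 0.0995). Fgfr3 ranged from 3.40 to 9.63 CPM in Control and from 6.68 to 10.7 CPM in NICD islets (log2 fold change 0.57, edgeR adjusted p = 0.240), and its groups overlapped through Control 2. The pseudogene Fgfr3-ps, which can share reads with Fgfr3, had 29 counts in Control 2 and at most 8 elsewhere. The plot of FGF receptor levels shows the 5 genes together.

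Levels of different genes can be compared only per length of transcript. Per kilobase of the longest annotated transcript, Fgfr2 made up 14.9% ± 2.85 of the summed level of Fgfr1 to Fgfr4 in Control and 32.8% ± 5.46 in NICD islets (SD, n = 4 each). Fgfr1 made up 55.8% ± 5.62 and 44.6% ± 2.95, and remained first of the 4 in both groups. The Fgfr2 share was 12.0%, 16.2%, 18.2% and 13.2% in Control 1 to 4 and 33.6%, 33.9%, 38.4% and 25.3% in NICD 1, 2, 4 and 5, so the groups did not overlap. With the median transcript length in place of the longest, the Fgfr2 share was 9.37% and 22.5%. Its place among the 4 depended on the length used. By the longest transcript Fgfr2 ranked after Fgfr1 and Fgfr3 in Control islets, with ranges of Fgfr2 and Fgfr3 that overlapped, and after Fgfr1 alone in NICD islets. By the median length it was last in Control islets, where Fgfr3 made up 24.5% and Fgfr4 19.8%, and close to Fgfr3 (21.2%) in NICD islets. Fgfr1op2, a cytoplasmic protein gene taken in by the symbol rule, had the highest level per length in this class, at 63.7, 61.0, 75.5 and 64.4 CPM in Control 1 to 4 and at 59.0, 47.6, 46.4 and 66.4 CPM in NICD 1, 2, 4 and 5. Its groups overlapped (log2 fold change -0.27, edgeR adjusted p = 0.245).

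Among FGF ligand genes, most of the secreted factors were near the floor. The counts of 13 were too low to test, with 0 in every library for Fgf3 and Fgf4, at most 3 in any library for 10 of the 13 counting these, and at most 15 for Fgf10, a main ligand of the epithelial form of Fgfr2. Fgf7, the other main ligand of that form, was tested at 0.384 CPM in Control and 0.562 CPM in NICD islets and had at most 17 counts in any library (log2 fold change 0.54, edgeR adjusted p = 0.521). The 4 FGF homologous factors Fgf11 to Fgf14 are not secreted and do not act through FGF receptors in the usual way, but bind voltage-gated sodium channels inside the cell.

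Fgf12 (chromosome 16, 28160098 to 28753068) was the most abundant FGF ligand gene per length. It was at 25.0, 27.5, 22.8 and 13.8 CPM in Control 1 to 4 and at 35.8, 38.7, 35.3 and 36.7 CPM in NICD 1, 2, 4 and 5. The NICD libraries lay close together and all above the Control libraries, of which Control 4 was lowest. The log2 fold change of 0.72 (standard error 0.20) missed the threshold, with an adjusted p of 0.0605 in edgeR's quasi-likelihood test, and passed it in 5 of the 23 other settings, among them DESeq2 (adjusted p = 0.0130) and the edgeR fit without NICD 1 (0.0299). The other homologous factors were lower. Fgf11 was at 1.68 and 2.41 CPM, Fgf13 at 2.80 and 1.92 CPM, and Fgf14 at 3.67 and 3.95 CPM in Control and NICD islets.

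Of the secreted FGFs that were tested, Fgf1, a ligand of all FGF receptors, was at 9.23 CPM in Control and 6.42 CPM in NICD islets (log2 fold change -0.52, edgeR adjusted p = 0.190). Fgf9, which acts mostly on the mesenchymal forms of Fgfr2 and Fgfr3, was at 5.60 and 8.06 CPM (0.52, edgeR adjusted p = 0.238), and its highest value, 13.1 CPM, was that of NICD 5 alone. Fgf2 was at 3.43 and 2.61 CPM. Fgf21, a hormone-like FGF made by the exocrine pancreas and the liver, ranged from 0.380 to 5.58 CPM among Control libraries, a wider spread than the gap between the group means of 2.29 and 1.42 CPM.

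In the EGF family no gene passed the threshold. Tgfa (chromosome 6, 86195223 to 86275719), a membrane-anchored ligand of Egfr, was at 9.59, 6.08, 5.30 and 6.49 CPM in Control 1 to 4 and at 13.1, 10.6, 13.9 and 9.67 CPM in NICD 1, 2, 4 and 5. The lowest NICD library lay just above the highest Control library. Its log2 fold change was 0.78 (standard error 0.22), with an adjusted p of 0.0635 in edgeR's quasi-likelihood test, and it passed in 5 of the 23 other settings, including those without Control 1 (adjusted p = 0.0394) and without NICD 1 (0.0423).

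Egf was the most abundant EGF family ligand per length. It was at 46.1, 50.6, 36.3 and 58.2 CPM in Control 1 to 4 and at 41.5, 38.1, 33.7 and 14.1 CPM in NICD 1, 2, 4 and 5. The groups overlapped, and NICD 5 was well below the rest (log2 fold change -0.59, standard error 0.30, edgeR adjusted p = 0.203). Among the other ligands, Hbegf, the heparin-binding ligand of Egfr, was at 6.13 and 7.62 CPM. Betacellulin (Btc) was at 0.876 and 0.888 CPM, and the neuregulins Nrg1 to Nrg4, ligands of Erbb3, Erbb4 or both, were all below 2 CPM in every library. Nrg3 had the largest estimate of the EGF family ligands in size, from 5, 14, 16 and 31 counts in Control 1 to 4 to 11, 2, 16 and 3 in NICD 1, 2, 4 and 5 (log2 fold change -1.04, standard error 0.64, edgeR adjusted p = 0.272), with groups that overlapped at low counts. The counts of Areg, Ereg and Epgn were too low to test, with at most 16 in any library.

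Egfr (chromosome 11, 16752203 to 16918158), singled out after its values were seen, was at 18.0, 16.1, 12.1 and 24.1 CPM in Control 1 to 4 and at 13.1, 6.07, 8.10 and 7.31 CPM in NICD 1, 2, 4 and 5. The groups overlapped only because NICD 1 lay above Control 3. The log2 fold change was -1.02 (standard error 0.28, 95% interval -1.65 to -0.39), and edgeR's adjusted p of 0.0578 missed the threshold. It passed in 6 of the 23 other settings, among them DESeq2 (adjusted p = 0.00791) and the edgeR fits without Control 3 (0.0464) and without NICD 1 (-1.29, adjusted p = 0.00745). NICD 1 and Control 3 were the libraries whose trend with transcript length went against that of the rest of their groups. Egfr has a long transcript (10208 bases), and with a transcript length offset its log2 fold change was -0.49 (edgeR adjusted p = 0.0491) in place of -1.02.

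Erbb3, a receptor with an impaired kinase that pairs with Erbb2, was the most abundant EGF receptor gene per kilobase of the longest transcript over all 8 libraries and in NICD islets, while Egfr was first in Control islets and, by median length, in both groups. Erbb3 was at 11.1, 10.1, 5.82 and 11.1 CPM in Control 1 to 4 and at 11.2, 5.24, 6.87 and 8.31 CPM in NICD 1, 2, 4 and 5, with groups that overlapped throughout (log2 fold change -0.27, edgeR adjusted p = 0.511). Erbb2 was at 2.84 and 3.04 CPM, and Erbb4 had at most 10 counts in any library and was not tested. Per length, Egfr made up 44.3% ± 4.78 of the 4 receptor genes in Control and 30.0% ± 3.08 in NICD islets (SD, n = 4 each), and Erbb3 40.6% ± 2.88 and 46.7% ± 4.99. By median length the Egfr share was 91.3% and 84.8%, so the balance of Egfr and Erbb3 depends on the length used.

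**Figure D3:**
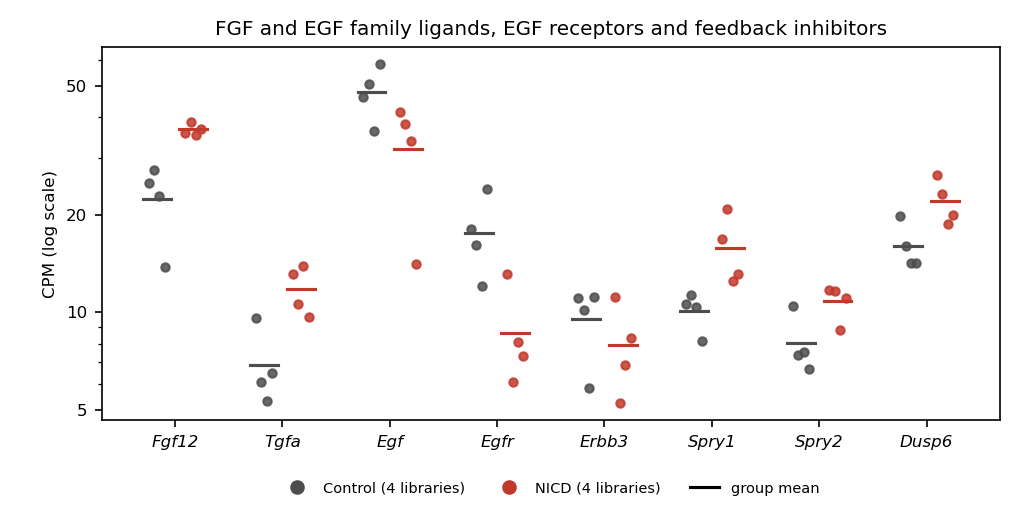
Level in CPM on a log axis of ligands, EGF receptors and feedback inhibitors, with a point for each of the 4 Control (grey) and 4 NICD (red) libraries and a line at the group mean. Fgf12, Tgfa and Spry1 are higher in every NICD than in every Control library, while Egfr, Egf, Erbb3, Spry2 and Dusp6 overlap between the groups.

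The PDGF genes showed no difference past the threshold. Pdgfa, which makes the chain that binds Pdgfra, was the most abundant ligand of this class per length, at 22.9, 17.8, 21.4 and 15.0 CPM in Control 1 to 4 and 16.8, 19.1, 15.2 and 22.9 CPM in NICD 1, 2, 4 and 5 (log2 fold change -0.06, 95% interval -0.47 to 0.36). The 2 groups covered nearly the same range. Pdgfb, the chain that recruits pericytes to vessels, was at 9.86 and 11.8 CPM (0.26, edgeR adjusted p = 0.282), Pdgfd at 4.91 and 5.31 CPM and Pdgfc at 1.18 and 1.80 CPM.

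Pdgfrb, the receptor of pericytes, was at 24.3, 37.5, 13.9 and 27.1 CPM in Control 1 to 4 and at 30.7, 27.9, 27.2 and 24.6 CPM in NICD 1, 2, 4 and 5 (log2 fold change 0.10, 95% interval -0.47 to 0.68). The NICD libraries lay inside the Control range. Pdgfra, a fibroblast receptor, was at 15.3 CPM in Control 2 and at 3.32 to 8.57 CPM in the other 7 libraries. Control 2 was also the library with the highest summed level of the 12 stromal markers, at 880.3 CPM against 276.3 to 439.5 CPM in the other Control and 491.1 to 618.1 CPM in the NICD libraries. With the stromal markers as a covariate the sign of the Pdgfrb estimate turned. Beyond that covariate fit, the part of the stromal cells in the levels of both receptors was not tested.

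The HGF and Kit pairs had 4 negative estimates and no call. Met, the HGF receptor, had the highest level per length of the 4 by the longest transcript, and was at 42.0, 31.6, 14.8 and 14.2 CPM in Control 1 to 4 and at 40.1, 14.5, 17.3 and 18.1 CPM in NICD 1, 2, 4 and 5. Its 3 highest libraries, Control 1, Control 2 and NICD 1, came from both groups (log2 fold change -0.19, standard error 0.42, edgeR adjusted p = 0.773). The sign of the Met difference turned with the transcript length offset (0.13) and without Control 1 (0.16). Hgf, a factor of stromal cells, was at 1.51 and 1.02 CPM. The receptor Kit was at 10.5 and 8.07 CPM (edgeR adjusted p = 0.285) and its ligand Kitl at 11.8 and 8.87 CPM (edgeR adjusted p = 0.235).

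The feedback inhibitors are commonly read as a trace of ERK activity, and none passed the threshold. Spry1 (chromosome 3, 37639947 to 37644598), a Sprouty inhibitor of RAS activation, was at 10.6, 11.3, 10.4 and 8.12 CPM in Control 1 to 4 and at 16.8, 20.8, 12.5 and 13.2 CPM in NICD 1, 2, 4 and 5. All NICD libraries were above all Control libraries, with a log2 fold change of 0.65 (standard error 0.20, edgeR adjusted p = 0.0772), and DESeq2 alone of the 23 other settings called it (adjusted p = 0.0271). Dusp6, the cytoplasmic ERK phosphatase, and Spry2 were singled out after their values were seen. Dusp6 was at 19.7, 16.1, 14.2 and 14.2 CPM in Control and 26.4, 23.2, 18.7 and 19.9 CPM in NICD libraries, with Control 1 inside the NICD range (0.46, edgeR adjusted p = 0.114). Spry2 was at 10.5, 7.39, 7.52 and 6.70 CPM and 11.7, 11.7, 8.83 and 11.0 CPM, with Control 1 again inside the NICD range (0.43, edgeR adjusted p = 0.158).

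Dusp5, the nuclear ERK phosphatase, had the highest level per length of the inhibitors. It was at 39.8, 31.8, 50.0 and 24.2 CPM in Control 1 to 4 and at 43.3, 56.2, 35.0 and 50.7 CPM in NICD 1, 2, 4 and 5, and the groups overlapped widely (0.35, edgeR adjusted p = 0.318). Spred1 (0.19), Spry4 (-0.03), Spred2 (-0.28) and Dusp4 (-0.45) completed the tested inhibitors, and Spry3 had at most 5 counts. Spred2 was called lower in the 6 libraries without Control 3 and NICD 1 (-0.80, edgeR adjusted p = 0.0226), and Spred1 higher with the transcript length offset (0.47, edgeR adjusted p = 0.0487). In those 6 libraries the trend with transcript length was positive in every Control and negative in every NICD library. Group and length trend cannot be told apart in that fit. The plot of ligands and feedback inhibitors shows how close the groups of Dusp6 and Spry2 came to one another.

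The other genes of the route were taken from a list of 75, of which 71 were tested. Of these, 6 passed the threshold higher and 1 lower in NICD islets (9.86%, beside 6.76% of all genes), with a median log2 fold change of 0.08. The list was written with earlier results of these data known, so its share and those of its parts are descriptions and not tests. The higher genes were carriers of heparan sulfate, proteins that trim it or bind FGF receptors, and 1 phosphatase, Dusp9, which entered the test only through the NICD libraries. None of the 13 tested genes of the RAS-ERK cascade and none of the 13 tested ERK target genes passed. At an unadjusted p under 0.05, 1 cascade gene was higher and 4 were lower, and 3 target genes were higher and 1 lower, again to be read beside 2503 higher and 2266 lower of all 15082 genes. DESeq2 called 3 cascade genes lower and 1 target gene in each direction, and limma-voom called none of either list. Without NICD 1, edgeR called 1 cascade and 1 target gene higher and 2 of each lower, the 6 libraries gave 2 cascade genes in each direction and 2 target genes lower, and the acinar covariate gave 2 cascade genes lower. The transcript length offset gave 1 cascade and 1 target gene lower, and upper-quartile normalization gave 1 target gene higher. The edgeR fit without NICD 1 called 23 genes of the whole list in place of 7, and the 5 libraries with at most 1 Eif2s3y count left 1, Gpc3. Calls over all tested genes also rose without NICD 1 and fell in the 5 libraries, so these shifts are not particular to the list.

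Of 10 heparan sulfate carriers, 3 rose (30%, beside 4.19% of all tested genes called higher). Another, Gpc4, singled out after its values were seen, was lower in every NICD library (64.9 to 100.5 CPM) than in any Control library (105.4 to 122.3 CPM) but missed the threshold (-0.46, edgeR adjusted p = 0.108), and the list gained 1 lower call with the transcript length offset and in the 6 libraries. Gpc3 (chromosome X, 52272426 to 52613950), a glypican that is abundant in embryonic tissues, was at 5.26, 10.5, 5.22 and 5.48 CPM in Control 1 to 4 and at 170.9, 242.7, 264.9 and 260.3 CPM in NICD 1, 2, 4 and 5. The lowest NICD library was far above the highest Control library, Control 2. The difference was 5.15 on the log2 scale (standard error 0.30, adjusted p = 3.71e-05, edgeR's quasi-likelihood test, Benjamini-Hochberg). Gpc6, another glypican, went from 9.09, 13.8, 17.7 and 13.3 CPM to 32.9, 37.7, 39.7 and 39.5 CPM (1.47, edgeR adjusted p = 0.00315). The syndecan Sdc2 went from 30.6, 32.9, 42.7 and 33.4 CPM to 53.3, 50.4, 47.8 and 64.3 CPM (0.63, edgeR adjusted p = 0.0434). The Sdc2 call was lost in 6 of the 8 fits that left out 1 library, namely without Control 1 (edgeR adjusted p = 0.116), Control 2 (0.117), Control 4 (0.122), NICD 2 (0.0979), NICD 4 (0.0858) and NICD 5 (0.0807), and also with the replicate block (0.0560), the stromal covariate (0.0931), the Eif2s3y covariate (0.0628), no filter on low counts (0.0526) and the 5 libraries with at most 1 Eif2s3y count (0.435).

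Of the 9 tested FGF co-receptors and modulators, 2 rose (22.2%, beside 4.19% of all tested genes called higher). With the transcript length offset 4 were called higher, and calls over all tested genes also rose in that fit. Sulf2 encodes an enzyme outside the cell that removes sulfate from heparan sulfate, and was at 7.24, 6.88, 3.68 and 5.52 CPM in Control 1 to 4 and at 20.8, 30.4, 41.9 and 25.7 CPM in NICD 1, 2, 4 and 5 (log2 fold change 2.35, standard error 0.28, edgeR adjusted p = 0.00148). Flrt3, a membrane protein that binds FGF receptors, was at 0.922, 0.591, 0.435 and 0.528 CPM and at 1.85, 2.58, 3.52 and 2.22 CPM (2.04, standard error 0.34, edgeR adjusted p = 0.00849). Neither gene overlapped between the groups. Flrt1, of the same family and singled out after its values were seen, was the 1 gene of the list with a negative estimate, at 16.2, 13.5, 7.08 and 13.3 CPM in Control and 9.84, 2.05, 3.82 and 1.56 CPM in NICD libraries (-1.54, standard error 0.53, edgeR adjusted p = 0.0977). The list gained 1 lower call with DESeq2, the acinar covariate, the replicate block, the 6 libraries without Control 3 and NICD 1, and without NICD 1 alone. Of the 6 tested other phosphatases and RAS inhibitors, 4 had negative estimates, 2 of them at an unadjusted p under 0.05, and 1 passed the threshold, higher. Without NICD 1 and in the 6 libraries 3 were called lower, and with the acinar covariate 1 was, in fits where calls over all tested genes also rose. The higher gene, Dusp9, a cytoplasmic ERK phosphatase, had 9, 1, 0 and 3 counts in Control 1 to 4 and 29, 36, 49 and 14 counts in NICD 1, 2, 4 and 5 (3.20, standard error 0.73, edgeR adjusted p = 0.0326). No Control library reached 10 counts, so the gene met the filter only through the group where it was high, and its call is given as a description. The call was lost without Control 2 (edgeR adjusted p = 0.0838), without Control 4 (0.0945), with the stromal covariate (0.0909), with the Eif2s3y covariate (0.0542) and in the 5 libraries with at most 1 Eif2s3y count (0.269), and in the 4 fits that left out an NICD library and with 10 counts required in every library Dusp9 was not tested.

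Of the 10 receptor adaptors, 1 fell (10%, beside 2.57% of all tested genes called lower). Calls in this list rose to 1 higher and 5 lower without NICD 1 and also in the 6 libraries, and to 2 in each direction with DESeq2. Calls over all tested genes rose in each of these fits too. Shc1, which links phosphorylated receptors to GRB2 and RAS, was at 170.6, 161.2, 165.4 and 199.7 CPM in Control 1 to 4 and at 108.1, 88.5, 97.3 and 82.2 CPM in NICD 1, 2, 4 and 5. Every NICD library was below every Control library, and the level fell by 0.89 on the log2 scale (standard error 0.15, adjusted p = 0.00776, edgeR's quasi-likelihood test, Benjamini-Hochberg). None of the 10 genes that process EGF ligands or inhibit EGF receptors passed, with 1 higher and 2 lower at an unadjusted p under 0.05, 1 in each direction by DESeq2 and none by limma-voom. In the 6 libraries 5 of these genes were called lower, and without NICD 1 alone 2 were. The acinar covariate gave 1 lower and the transcript length offset 1 higher. Calls over all tested genes also rose in each of these fits.

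**Figure D4:**
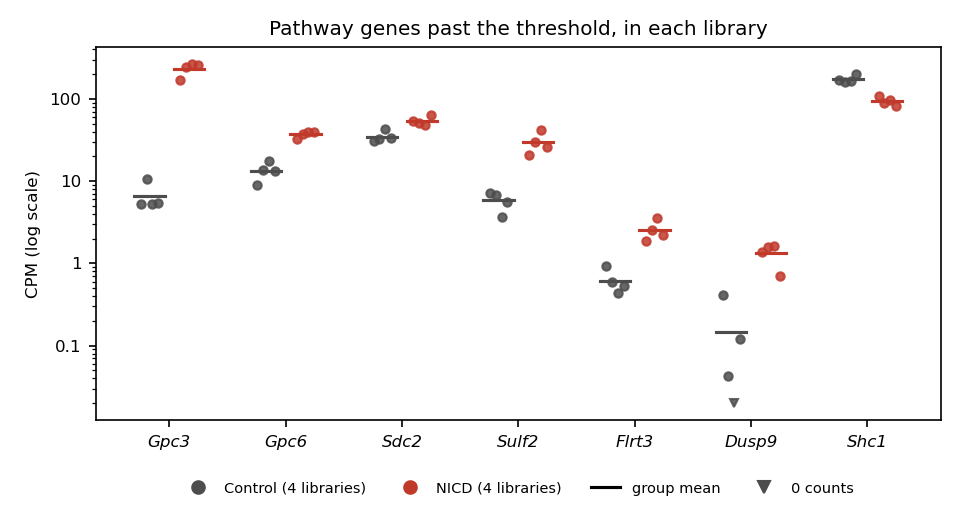
Level in CPM on a log axis of the 7 pathway genes past an adjusted p of 0.05, with a point for each of the 4 Control (grey) and 4 NICD (red) libraries, a line at the group mean and a triangle near the lower edge for a count of 0. Gpc3 shows the widest gap (5.22 to 10.5 CPM against 170.9 to 264.9 CPM), Sdc2 a narrow one (at most 42.7 against at least 47.8 CPM), and Shc1 is the gene lower in NICD islets.

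**Figure D5:**
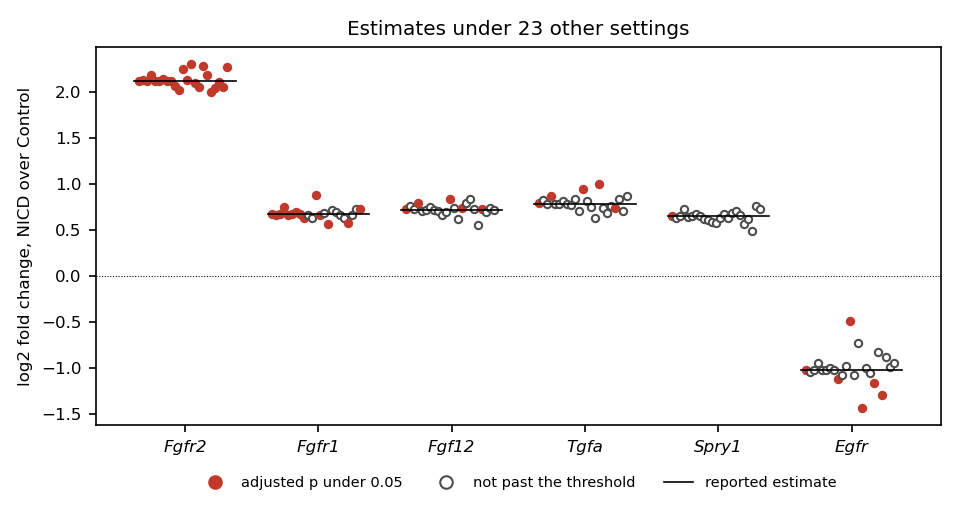
Log2 fold change of 6 growth factor genes in NICD over Control islets under 23 other settings (y axis), filled where the adjusted p was under 0.05 and open where it was not, with a line at the reported estimate. All 23 points are filled for Fgfr2, 14 for Fgfr1, 5 each for Fgf12 and Tgfa, 1 for Spry1 and 6 for Egfr.

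The plot of estimates by setting shows that none of these 6 genes changed sign. The settings differed in which of them were called. The fit without NICD 1 called 5 growth factor genes (Fgfr1, Fgfr2, Fgf12, Tgfa and Egfr), whereas the fits without Control 2, Control 4, NICD 2 or NICD 4 each called 1, Fgfr2. Among the fits that left out 1 library, calls over all tested genes were also most numerous without NICD 1, so this contrast is not particular to the growth factor genes.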

How the data were processed

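The authors made stranded poly(A) libraries from islet RNA, used kallisto to pseudoalign reads to GRCm38 mouse transcripts, and deposited whole-number counts per gene symbol, not normalized. The kallisto version and annotation release are not given in the sources used here. Their deposited comparison table (log2 fold changes, mean log2 expression, moderated t, p-values, adjusted p-values, log odds and -log10 of the p-value) was not used. NICD columns are numbered 1, 2, 4 and 5 and mice 1 to 4, so columns 4 and 5 were assigned to the group only. The labels do not pair mice, and the 12 within-group library pairs differed by at least 31.5 in chi-square per gene, so each library counted as 1 replicate. No per-sample column was left unmapped.

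Counts were analysed with edgeR 4.0.16 in R 4.3.3. Genes were kept with 10 or more counts in 4 or more libraries, libraries were normalized by TMM, and NICD was compared with Control by edgeR's quasi-likelihood test without covariates, with Benjamini-Hochberg adjustment over all tested genes and a threshold of 0.05. CPM use TMM-adjusted library sizes. Standard errors are the estimate over the root of F. The fit was tested on simulated data. Lengths and coordinates are from GENCODE M21, promoter windows from RefSeq (GRCm38.p6), and figures were drawn with matplotlib 3.10.9. Alternatives were DESeq2 1.42.0, limma-voom (limma 3.58.1), other normalizations and filters, covariates (acinar and stromal markers, Eif2s3y), a transcript length offset, the replicate block and leaving out each library. The fits of 5 libraries with at most 1 Eif2s3y count and of 6 libraries were added after seeing the data.

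Members and lists were chosen with earlier results of these data known. Values in every library are given for members past the threshold, for tested members with at least 1 CPM on average whose groups did not overlap, and for the member highest per length in each class. Pathway genes past the threshold are named. Egfr, Dusp6, Spry2, Nrg3, Flrt1 and Gpc4 were singled out after their values were seen.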

Additional observations from a re-analysis of the deposited data

Results flagged for a closer look

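In groups of 4 libraries, a library was singled out when its gap to the nearest other was too large a share of the range of the group by Dixon's 95% critical value. This held in 9 of 90 groups of the 45 tested growth factor genes, where chance gives about 4.5. In Control islets, Fgf1 was highest in Control 2 (11.4 CPM, others 8.16 to 8.71, gap 0.833 of the range), Kitl was highest in Control 2 (15.5 CPM, others 10.2 to 10.9, gap 0.862) and Fgf13 was lowest in Control 1 (1.20 CPM, others 3.25 to 3.40, gap 0.931). In NICD islets, 4 of the 6 came from NICD 1. They were the high values of Fgf14 (7.13 CPM, others 2.53 to 3.07, gap 0.882), Fgf21 (2.66 CPM, others 0.857 to 1.10, gap 0.867) and Met (40.1 CPM, others 14.5 to 18.1, gap 0.856), and the low value of Nrg4 (0.475 CPM, others 0.806 to 0.830, gap 0.932), which rests on 10 counts. Fgf11 was highest in NICD 4 (3.62 CPM, others 1.92 to 2.09, gap 0.900) and Fgf9 was highest in NICD 5 (13.1 CPM, others 5.90 to 7.03, gap 0.841). None of the 9 genes passed the threshold in the comparison of the groups. NICD 1 also had the largest share of counts from the acinar markers, at 10.6%, with 6.96% in Control 1 and 3.4% to 4.97% in the other libraries. The part of that share in these single values was not tested.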

How the results depend on the processing

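The numbers of calls (1020 of all tested genes, 2 growth factor genes, 7 pathway genes) depended on the tool and on the libraries. DESeq2 called 2739, 6 and 18, the transcript length offset 1569, 6 and 14, the acinar covariate 1600 of all and 12 pathway genes, the stromal covariate 373 of all and 1 growth factor gene, the Eif2s3y covariate 1 growth factor gene, and upper-quartile normalization 4 growth factor genes. The 5 libraries with at most 1 Eif2s3y count gave 122, 1 and 1, and the 6 libraries without Control 3 and NICD 1 gave 5930, 6 and 28. In these 6 libraries the trend with transcript length was positive in every Control and negative in every NICD library. No call of that fit can be told apart from the length trend. Leaving out 1 library gave 319 to 4954, 1 to 5 and 5 to 23 calls, the highest of each without NICD 1. Without NICD 1, every remaining NICD library had a negative trend with transcript length, while Control 1, 2 and 4 had a positive one. The replicate block gave 970, 2 and 7 and ended the call of Sdc2 alone of the 24 named genes. The labels do not say that numbers pair mice, and deviations of same-numbered libraries correlated at 0.307 (number 1) and -0.119 (number 2). Among named genes, signs turned for Pdgfa (upper-quartile 0.0211, stromal covariate 0.0155, 6 libraries 0.0377, leave-one-out estimates -0.17 to 0.0445), Pdgfrb (stromal covariate -0.13, 6 libraries -0.16, leave-one-out -0.10 to 0.35), Erbb3 (length offset 0.0352), Met (length offset 0.13, leave-one-out -0.62 to 0.16) and Dusp5 (5 libraries -0.0027), none of them called in the reported fit. Erbb3 was called in the 6 libraries (-0.66, edgeR adjusted p = 0.0391). Signs also turned in 1 to 7 settings for Fgf9, Fgf14, Fgf21, Btc, Nrg1, Erbb2, Pdgfd, Pdgfra, Hgf, Spry4 and Dusp4, none of them called in any setting. Of 547 estimates for 24 named genes, 488 kept their direction and side of the threshold, 29 lost the call, 18 gained it and 12 changed sign. The gene with the highest level was the same by median transcript length in 6 of 8 classes, while the order below it was not always kept. The cause of these changes was not tested, and genes at or under 3 counts cannot show a difference at this depth.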

Other observations

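Some growth factor genes too low to test had their counts in few libraries. Epgn, an EGF receptor ligand, had 9 counts in NICD 5 and at most 1 in the others, and Fgfr3-ps had 29 counts in Control 2, 5 in Control 1, 8 in NICD 1 and 0 in the other 5. Areg, an Egfr ligand induced in injured epithelia, had 16, 8, 5 and 4 counts in Control 1 to 4 and 3, 5, 9 and 11 in NICD 1, 2, 4 and 5. Erbb4, the neuregulin receptor, had 0, 10, 3 and 7 counts in Control and 3, 1, 5 and 8 in NICD libraries. Fgf10 had 4, 8, 2 and 3 counts in Control and 15, 2, 6 and 8 in NICD libraries.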
